A study of Homo sapiens with 24 samples.

Results

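The 38 genes described here encode parts of the lysosome, together with CD68 and LYZ, 2 genes best known from macrophages whose products lie in lysosomes or in secreted granules. They were chosen by name from a fixed list of lysosomal genes, with earlier results of the same data known, and all 38 were found among the 25268 genes measured. A mean of at least 1 FPKM (a fragment count divided by the length of the transcript and by library size) over the 24 libraries was required for testing, and 37 of the 38 were among the 12042 genes that met it. TFEB, at a mean of 0.384 FPKM, did not. ARSA met the limit only through 1 library: its mean was 4.34 FPKM over 24 libraries and 0.633 FPKM over the 23 without library 2 of A771726 at 48 h.

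RNA from A375, an established human melanoma line, was sequenced after depletion of ribosomal RNA, at 24 h and 48 h, with 3 libraries for each of 8 groups. A771726 is the active metabolite of leflunomide and blocks DHODH, the enzyme of the mitochondrion that makes a precursor of all pyrimidine nucleotides. At each time the groups were A771726 alone at 25 µM, A771726 at the same dose with nucleotides, nucleotides alone, and DMSO, the vehicle. Which nucleotides were added, and how much, is not given in the sources used here. The labels do not state that replicate libraries were prepared from separate cultures, so p-values reflect only how far these libraries scatter, and that scatter may be technical.

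Lysosomes are acidic compartments in which hydrolases break down proteins, glycans, lipids and nucleic acids delivered by endocytosis and autophagy. The proton pump of the lysosomal membrane keeps them acidic, and many of their genes share a short promoter element bound by the transcription factors TFEB, TFE3 and MITF. In melanocytes and melanoma the lysosome is closely related to the melanosome, the pigment organelle, and MITF is the lineage's own member of this factor family.

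The sum of FPKM over all genes lay between 459300 and 773000 in 22 libraries. For A771726 at 48 h, library 1 summed to 231100 FPKM and library 2 to 2284000 FPKM, both outside that range. Library 2 listed 16198 genes at 0, against 6757 to 8101 in the other 23 libraries, and 12 of the 38 lysosomal genes were among them. The median Spearman correlation of library 2 with every other library was 0.178, and that of library 1 was 0.747, against 0.905 to 0.970 for the rest. Fits were therefore made separately at 24 h and 48 h, and results at 48 h are given with and without these libraries. Of 19 melanoma markers, 13 exceeded 1 FPKM on average in A771726 and 12 in DMSO at 24 h. SOX10, a melanocyte lineage factor, averaged 47.9 FPKM in A771726 and 31.4 FPKM in DMSO at 24 h, while MLANA, a pigment cell antigen, averaged 0.224 and 0.150 FPKM in the same groups.

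Levels differed widely between the genes. In DMSO at 24 h SQSTM1, the p62 autophagy receptor, was highest with 119 ± 15.4 FPKM (SD, n = 3). PSAP, the precursor of the saposins that help lipid hydrolases reach their substrates, followed with 71.3 ± 3.36 FPKM, LAMP1 with 67.2 ± 6.19 FPKM and CTSZ with 62.8 ± 9.68 FPKM. PSAP, LAMP1 and CTSZ lay within the spread of one another. CD68 stood at 1.97 ± 0.254 FPKM and LYZ at 5.88 ± 0.367 FPKM, in the lower part of the list, and ARSA and TFEB were lowest with 0.422 ± 0.0661 and 0.259 ± 0.0484 FPKM.

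**Figure D1:**
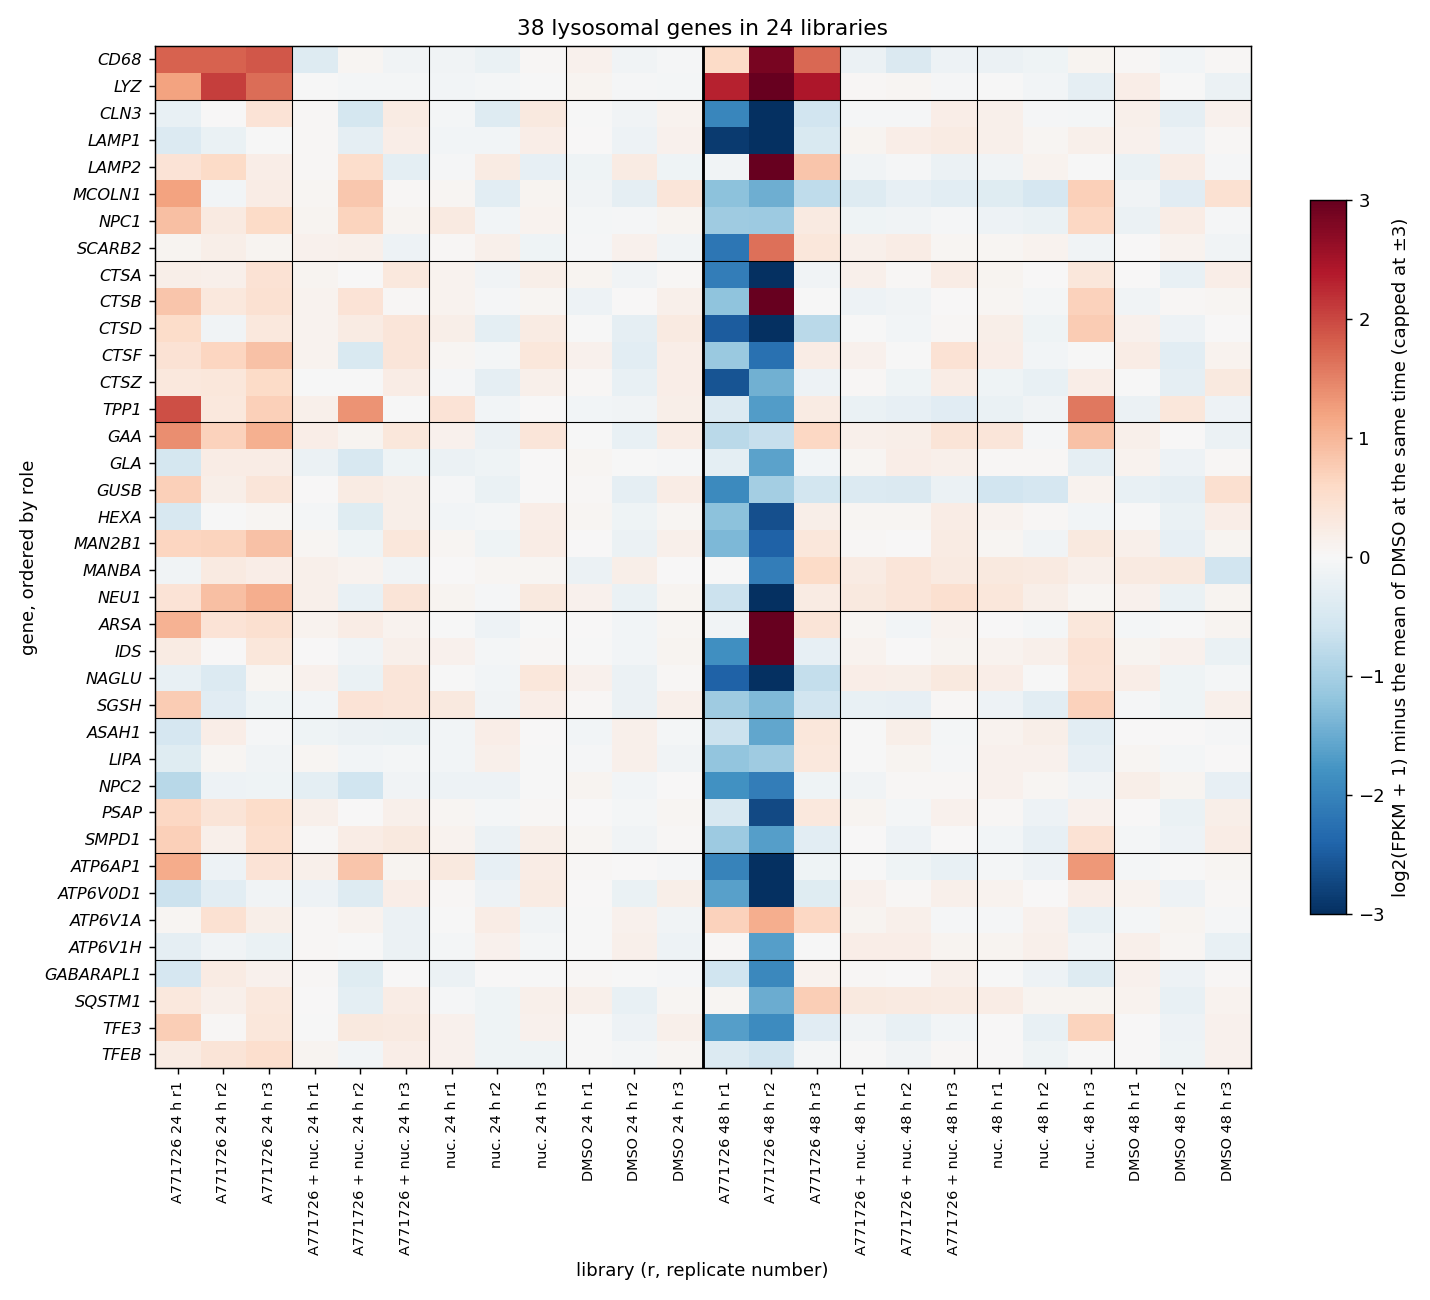
Each cell is the log2(FPKM + 1) of a gene in a library minus the mean of DMSO at the same time (red higher, blue lower, capped at ±3); genes run down by role, libraries run across by group, and nuc. stands for nucleotides. CD68 and LYZ were high in all 6 A771726 libraries, and libraries 1 and 2 of A771726 at 48 h were low for most other genes.

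The first comparison asked what A771726 did to lysosomal transcripts at 24 h. CD68 and LYZ rose most, and 6 hydrolase or cofactor genes rose with them: GAA, NEU1, MAN2B1, ARSA, CTSB and PSAP. CD68 is itself a membrane protein. None of the other membrane proteins, the proton pump subunits or the tested regulators on the list passed in either direction. In all, 8 of 37 tested members were higher and 0 lower than in DMSO at an adjusted p under 0.05 (limma on log2(FPKM + 1), Benjamini-Hochberg over 12042 genes). Of all genes tested, 10.0% were called higher and 7.79% lower. Setting ARSA aside, which met the limit on low values only through A771726, 7 of 36 were higher. The members' median log2 difference was 0.26, with 27 above 0 and 10 below, and that of all genes was 0.03. All 3 A771726 libraries exceeded all 3 DMSO libraries for 14 members, against 19.9% of all genes, and lay below them for 1 member, NPC2, against 15.3%. In bulk RNA, more transcript in every cell and more cells that make the transcript cannot be told apart.

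CD68, a heavily glycosylated membrane protein of lysosomes and late endosomes, stood at 9.08, 9.06 and 9.86 FPKM in the 3 A771726 libraries. The DMSO libraries held 2.25, 1.76 and 1.91 FPKM. The groups were far apart, and the 3 A771726 values were nearly alike. The ratio of the means was 4.73, and the log2 difference was 1.80 ± 0.12 (SE; limma adjusted p = 1.12e-05). LYZ, the enzyme that cleaves the cell walls of bacteria, stood at 14.8, 28.1 and 21.0 FPKM in A771726 and at 6.30, 5.68 and 5.65 FPKM in DMSO. Its A771726 libraries spread over a wider range than those of CD68, and all of them were above DMSO. The ratio of means for LYZ was 3.62 and the log2 difference 1.65 ± 0.17 (SE; limma adjusted p = 0.000187). CD68 kept its call under each of the 17 alternatives to the processing, and LYZ under 16 of them.

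**Figure D2:**
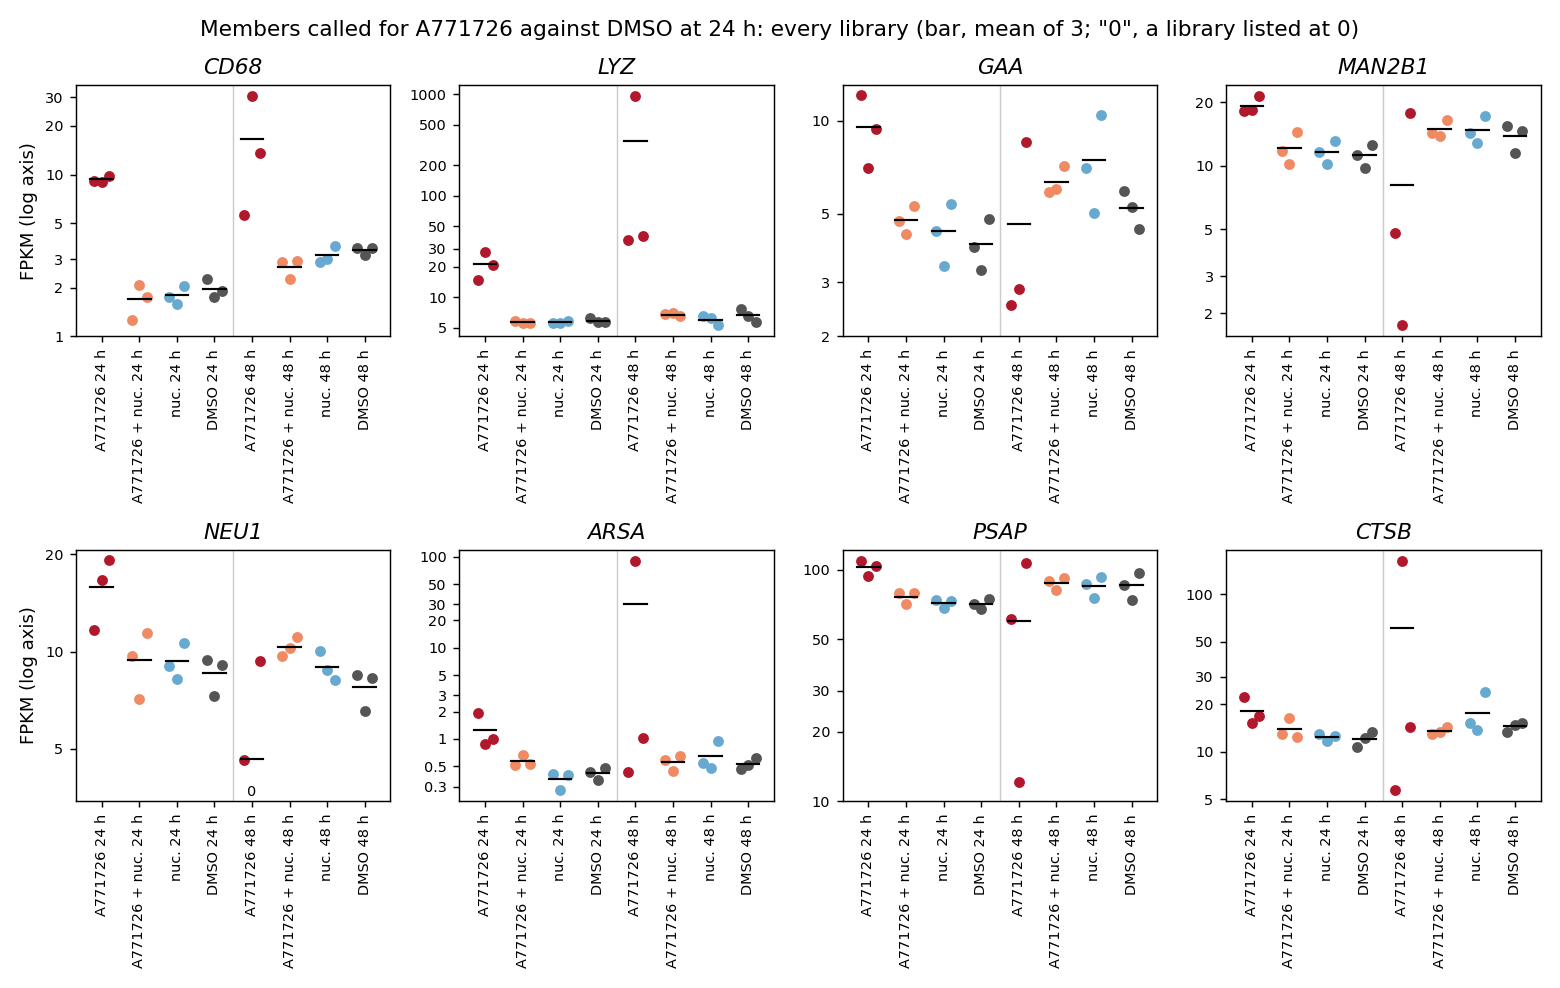
FPKM on a log axis for the 8 members that passed the test for A771726 against DMSO at 24 h; points are libraries, bars the mean of 3, nuc. stands for nucleotides, and the sign 0 marks a library listed at 0. At 24 h the red points of A771726 lie above the DMSO points in every panel, and at 48 h they scatter over a far wider range.

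Among the glycosidases, which trim sugars from glycans and glycogen, 3 of 7 rose and 0 fell. That is 42.9% higher, where 10.0% of all genes were called higher and 7.79% lower. With so few genes to a role, such shares are no result about a role, here or below. GAA, the acid alpha-glucosidase that breaks down glycogen, had 12.1, 7.02 and 9.42 FPKM in A771726 and 3.91, 3.28 and 4.80 FPKM in DMSO. Every A771726 library lay above every DMSO library, and the log2 difference was 1.05 ± 0.19 (limma adjusted p = 0.00486). NEU1, the lysosomal sialidase, had 11.7, 16.7 and 19.3 FPKM in A771726 and 9.41, 7.28 and 9.10 FPKM in DMSO. The lowest A771726 library was only a little above the highest DMSO library, and the log2 difference was 0.80 ± 0.20 (limma adjusted p = 0.0215). MAN2B1, the lysosomal alpha-mannosidase, was tighter, at 18.1, 18.4 and 21.3 FPKM in A771726 and 11.3, 9.74 and 12.5 FPKM in DMSO. Its log2 difference was 0.74 ± 0.14 (limma adjusted p = 0.00613). HEXA, a subunit of beta-hexosaminidase and the most abundant glycosidase on the list, had 14.9, 21.0 and 22.2 FPKM in A771726 and 22.2, 19.5 and 22.2 FPKM in DMSO. The groups overlapped, with a log2 difference of -0.15 ± 0.17. The other 3 did not pass: GUSB at 0.43, MANBA at 0.12 and GLA at -0.03 on the log2 scale.

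Among the 4 enzymes that degrade glycosaminoglycans and sulfatides, ARSA was the 1 called gene, and none of the other 3 passed. That is 25.0% higher, against 10.0% of all genes. ARSA, the arylsulfatase that desulfates the lipid sulfatide, had 1.91, 0.889 and 0.987 FPKM in A771726 and 0.437, 0.350 and 0.480 FPKM in DMSO. These are low levels, and the groups did not overlap. The log2 difference was 0.64 ± 0.14 (limma adjusted p = 0.0131), a scale on which the change of so low a gene is understated. Over the 18 libraries without A771726 alone it averaged 0.519 FPKM, under the limit for testing; with no filter on low values it passed as well (limma adjusted p = 0.0178). IDS, the iduronate sulfatase and the most abundant of the 4, had 12.8, 10.7 and 13.9 FPKM in A771726 and 10.7, 10.1 and 11.4 FPKM in DMSO. Its groups overlapped, at a log2 difference of 0.20 ± 0.11. SGSH and NAGLU, which both act on heparan sulfate, stood at 0.10 and -0.19.

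Of the 6 proteases, 1 rose, 16.7% against 10.0% of all genes, and all 6 had a positive log2 difference. CTSB, a cysteine cathepsin, had 22.3, 15.2 and 16.8 FPKM in A771726 and 10.7, 12.2 and 13.4 FPKM in DMSO. The groups did not overlap, and the log2 difference was 0.53 ± 0.15 (limma adjusted p = 0.0343), the call nearest to the threshold. It was lost without library 1 of A771726, where CTSB was highest, and under 6 other alternatives. CTSZ, the most abundant protease of the list, had 78.0, 79.7 and 92.5 FPKM in A771726 and 63.3, 52.8 and 72.1 FPKM in DMSO. Here too the groups were separate, at a log2 difference of 0.41 ± 0.14, but the limma adjusted p was 0.0719. CTSF stood at 0.66 ± 0.22 with a limma adjusted p of 0.067. CTSA, the protective protein that holds NEU1 in an active complex, stood at 0.26, and CTSD, the main aspartic protease, at 0.25. TPP1, a tripeptidyl peptidase, had the largest difference of this group, 0.99, with an SE of 0.43, since its value in library 1 of A771726 was far above the other libraries.

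Of the 5 genes for lipid breakdown and export, 1 rose, where 10.0% of all genes were called higher and 7.79% lower. PSAP had 109, 94.1 and 104 FPKM in A771726 and 71.3, 67.9 and 74.6 FPKM in DMSO. The groups were well apart for so abundant a transcript, with a log2 difference of 0.52 ± 0.08 (limma adjusted p = 0.00239). SMPD1, the acid sphingomyelinase, stood at 0.45 ± 0.15 (limma adjusted p = 0.0577). ASAH1, the acid ceramidase, was at -0.10 and LIPA, the acid lipase, at -0.14. NPC2, which hands cholesterol to NPC1, had 27.4, 44.5 and 45.1 FPKM in A771726 and 51.9, 46.4 and 49.5 FPKM in DMSO. NPC2 was lower in every A771726 library than in any DMSO library, at a log2 difference of -0.36 ± 0.18 (limma adjusted p = 0.206).

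None of the 6 membrane proteins other than CD68 passed, where 10.0% of all genes were called higher and 7.79% lower. LAMP1, which lines the inside of the lysosomal membrane, had 49.8, 58.1 and 66.1 FPKM in A771726 and 68.0, 60.6 and 72.9 FPKM in DMSO. The groups overlapped, at a log2 difference of -0.21 ± 0.15. The values of LAMP2, MCOLN1 (a calcium channel), SCARB2 (a sorting receptor for glucocerebrosidase) and CLN3 were 0.39, 0.45, 0.11 and 0.07. NPC1, the cholesterol exporter, was highest of the 6 at 0.58 ± 0.19 (limma adjusted p = 0.0622).

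None of the 4 proton pump genes passed either, where 10.0% of all genes were called higher and 7.79% lower. ATP6V0D1, a subunit of the membrane sector, had 22.5, 28.2 and 33.0 FPKM in A771726 and 35.7, 31.2 and 40.6 FPKM in DMSO. Its log2 difference was -0.36 ± 0.19, and the groups overlapped. ATP6V1A, the catalytic subunit, had 33.7, 44.8 and 36.7 FPKM in A771726 and 32.0, 35.4 and 30.2 FPKM in DMSO. It too overlapped, at 0.22 ± 0.13. ATP6V1H stood at -0.20 and ATP6AP1, an accessory subunit, at 0.46.

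Of the 4 regulators and autophagy genes, 3 could be tested and none passed, where 10.0% of all genes were called higher and 7.79% lower. TFE3 had 10.4, 5.98 and 7.59 FPKM in A771726 and 5.73, 5.16 and 6.58 FPKM in DMSO. The ranges overlapped, and the log2 difference was 0.37 ± 0.17 (limma adjusted p = 0.168). SQSTM1 had 148, 132 and 148 FPKM in A771726 and 132, 102 and 124 FPKM in DMSO, at 0.26 ± 0.15. TFE3 was called higher without library 2 of A771726 and under TPM scaling, and SQSTM1 under quantile normalization and TPM scaling. Of all 12042 genes, 1326 were called higher without that library, 860 under quantile normalization and 5126 under TPM scaling. GABARAPL1, an ATG8 family protein of the autophagosome membrane, had 9.74, 16.9 and 15.6 FPKM in A771726 and 14.5, 14.0 and 13.9 FPKM in DMSO. Its log2 difference was -0.04 ± 0.18, and the sign turned to 0.44 under TPM scaling, to 0.19 without library 1 of A771726 and to 0.19 with the 3 libraries described further on left out. TFEB was low in all groups, at 0.497, 0.636 and 0.795 FPKM in A771726 and 0.253, 0.214 and 0.311 FPKM in DMSO. The 3 A771726 values of TFEB were the higher ones. It was not in the main test, and with no filter on low values it passed (limma adjusted p = 0.0338).

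**Figure D3:**
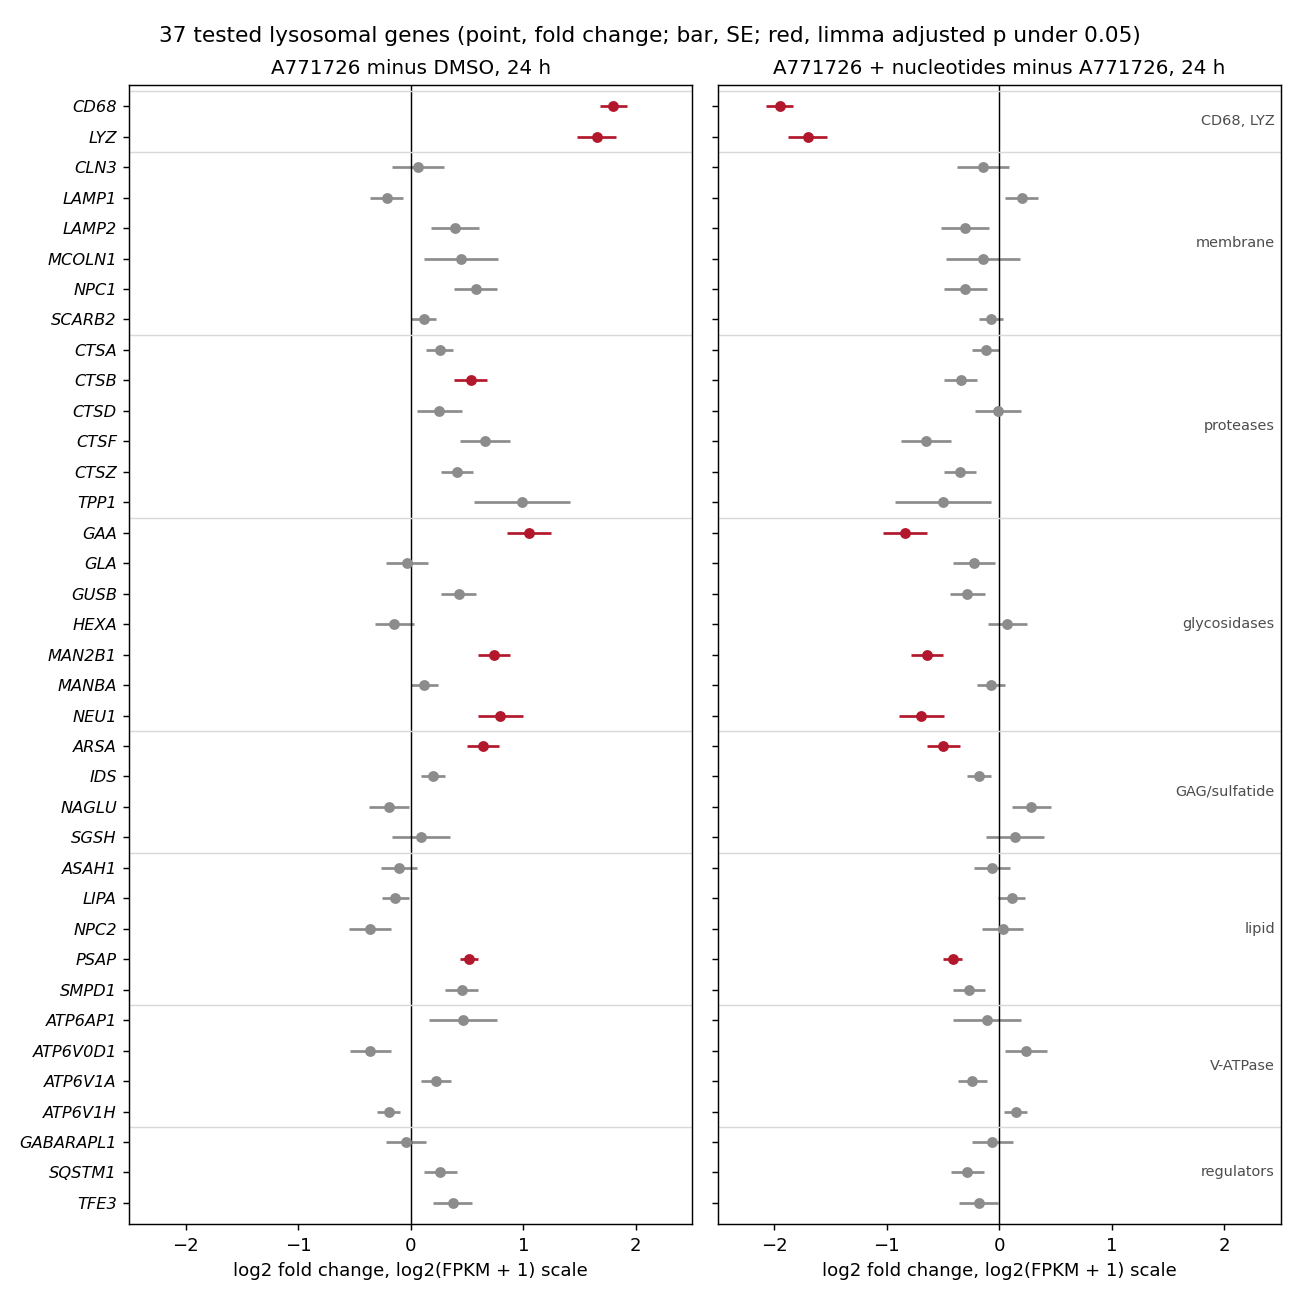
Log2 difference on the log2(FPKM + 1) scale for the 37 tested genes at 24 h, with SE bars, grouped by role; left, A771726 minus DMSO; right, A771726 with nucleotides minus A771726; red marks a limma adjusted p under 0.05. The 8 red points on the left run from 0.52 for PSAP to 1.80 for CD68, and the 7 red points on the right from -0.41 for PSAP to -1.95 for CD68.

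The number of calls at 24 h depended on the processing. With FPKM rescaled to a fixed total per library (TPM), 28 members were called higher and 0 lower. That rescaling moved the median log2 difference of all genes by 0.43, to 0.46, and called 42.6% of all genes higher and 1.75% lower. FPKM sums at 24 h were 459300, 582700 and 545400 in A771726 and 740100, 729600 and 769500 in DMSO, so that the same FPKM is a larger share of the total in A771726. Relative to the median of all genes, the members' median was 0.23 without and 0.30 with that rescaling. A single fit over all 24 libraries, whose spread includes library 2 of A771726 at 48 h, called 1 member, CD68. With that library left out of the single fit, 6 were called. Of all 12042 genes, 59 were called higher and 55 lower in the fit over 24 libraries. In the fit over 23 they were 836 and 569, against 1210 and 938 in the main fit.

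Promoter sequences were at hand for 26 of the 38 genes, from RefSeq on GRCh38.p14, and the 250 bases before each start were searched for CACGTG, the core of the element that TFEB, TFE3 and MITF bind. It occurred in 9 of the 26 promoters, 34.6%, and in 7.73% of the promoters of 27305 genes. TCACGTGA occurred in 5 of 26, 19.2%, against 1.04% of all. The longer motif contains the shorter, and each reads the same on both strands. Of the 8 genes that rose at 24 h, 4 had a promoter in the table, and CACGTG was present in GAA and NEU1 and not found in these windows of CD68 and MAN2B1. Among the 22 tested or untested members that did not pass, 7 held it, LAMP1, CTSA, CTSD, CTSF, MCOLN1, CLN3 and ATP6V0D1. The presence of these letters is a description of the window. The 4 genes that rose are shown first, since they are the ones the result turns on, and then 3 that did not pass although they hold the motif; capitals mark CACGTG, and all run 5′ to 3′ on the gene's own strand. The stretches shown are the last 80 to 200 of the 250 bases searched, ending at the base before the gene's start. That of CD68 is chr17:7579438-7579637 (plus strand), that of GAA chr17:80101481-80101580 (plus), that of NEU1 chr6:31862822-31862971 (minus), that of MAN2B1 chr19:12666743-12666842 (minus), that of LAMP1 chr13:113297039-113297238 (plus), that of MCOLN1 chr19:7522544-7522623 (plus) and that of ATP6V0D1 chr16:67481158-67481257 (minus).
CD68: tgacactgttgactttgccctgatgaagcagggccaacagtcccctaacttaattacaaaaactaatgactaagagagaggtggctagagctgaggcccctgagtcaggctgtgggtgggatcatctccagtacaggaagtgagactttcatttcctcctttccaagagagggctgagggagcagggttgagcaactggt
GAA: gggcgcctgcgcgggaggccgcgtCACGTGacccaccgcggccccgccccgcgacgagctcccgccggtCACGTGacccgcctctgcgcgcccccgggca
NEU1: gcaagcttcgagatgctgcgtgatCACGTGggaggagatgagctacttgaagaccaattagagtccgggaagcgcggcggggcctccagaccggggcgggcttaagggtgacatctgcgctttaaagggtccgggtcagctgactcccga
MAN2B1: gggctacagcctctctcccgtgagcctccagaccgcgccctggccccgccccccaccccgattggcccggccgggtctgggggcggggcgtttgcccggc
LAMP1: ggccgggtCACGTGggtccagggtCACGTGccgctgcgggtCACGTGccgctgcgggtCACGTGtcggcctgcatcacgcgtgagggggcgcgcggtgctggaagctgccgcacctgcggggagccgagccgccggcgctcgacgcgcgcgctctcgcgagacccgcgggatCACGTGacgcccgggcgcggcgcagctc
MCOLN1: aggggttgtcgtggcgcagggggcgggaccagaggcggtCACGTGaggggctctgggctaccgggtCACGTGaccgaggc
ATP6V0D1: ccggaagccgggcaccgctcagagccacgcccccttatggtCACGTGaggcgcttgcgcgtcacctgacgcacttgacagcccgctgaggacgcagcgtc

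The second comparison asked whether nucleotides changed what A771726 did at 24 h. CD68 and LYZ fell to the levels of the other groups when nucleotides were present, and GAA, MAN2B1, NEU1, ARSA and PSAP fell with them. In A771726 with nucleotides against A771726 alone, 7 of 37 members were lower and 0 higher (limma, adjusted p under 0.05), with 9.03% of all genes called lower and 4.30% higher. Setting ARSA aside, 6 of 36 were lower. The members' median was -0.18 and that of all genes -0.04. All 3 libraries of A771726 with nucleotides lay below all 3 of A771726 for 9 members, against 15.0% of all genes, and above them for 0, against 8.16%. This comparison and the first share the A771726 libraries, so the genes' values are given side by side and their likeness is not a separate result.

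CD68 had 1.27, 2.07 and 1.75 FPKM in A771726 with nucleotides, against 9.08, 9.06 and 9.86 FPKM in A771726 alone. The groups were far apart, at a log2 difference of -1.95 ± 0.12 (limma adjusted p = 7.82e-06). LYZ had 5.77, 5.55 and 5.60 FPKM with nucleotides, against 14.8, 28.1 and 21.0 FPKM without, and the 3 values with nucleotides were almost equal. Its log2 difference was -1.70 ± 0.17 (limma adjusted p = 0.000177). GAA averaged 4.77 ± 0.512 FPKM with nucleotides and 9.50 ± 2.52 FPKM without, and fell by 0.84 on the log2 scale (limma adjusted p = 0.0181). MAN2B1 averaged 12.1 ± 2.18 FPKM with and 19.3 ± 1.79 FPKM without (limma adjusted p = 0.0149), and PSAP 76.6 ± 4.47 FPKM with and 103 ± 7.77 FPKM without (limma adjusted p = 0.00894). NEU1 and ARSA passed only narrowly, with limma adjusted p of 0.0473 and 0.0489 at log2 differences of -0.69 and -0.50, and neither passed with no filter on low values. CTSB, the eighth gene that A771726 raised, had 13.0, 16.5 and 12.4 FPKM with nucleotides, against 22.3, 15.2 and 16.8 FPKM without. Its groups overlapped, and the limma adjusted p was 0.181. Without library 3 of A771726, or without library 1 of A771726 with nucleotides, 3 members stayed called, CD68, LYZ and PSAP, and without library 2 of A771726 with nucleotides those and MAN2B1. Calls among all genes fell too, from 518 higher and 1087 lower with all libraries. They were 350 and 748, 279 and 714, and 483 and 941 in these fits, in that order.

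The difference between the effect of A771726 in the presence of nucleotides and its effect in their absence was tested as an interaction at 24 h. It passed for 2 of 37 members, CD68 at -1.86 ± 0.17 (limma adjusted p = 0.000248) and LYZ at -1.65 ± 0.25 (limma adjusted p = 0.00433). Of all genes, 3.31% were called lower and 1.37% higher in this test. GAA, at -0.94, and MAN2B1, at -0.69, missed it with limma adjusted p of 0.0965 and 0.0967, and PSAP, at -0.43, with 0.0779. Without library 2 of A771726, GAA and PSAP passed as well. NEU1 passed without library 1 of A771726, and MAN2B1 without library 3 of A771726 with nucleotides. Of all genes, 353, 580 and 350 were called lower in these fits, in that order, against 399 with all libraries. Those called higher were 169, 198 and 137, against 165.

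Against DMSO, A771726 with nucleotides had 0 members called at 24 h (limma), where 0.0166% of all genes were called higher and 0.00830% lower. No member had an unadjusted p under 0.05, while 323 of the 12042 genes did. The log2 differences ran from -0.33 for NPC2 to 0.49 for TPP1, with CD68 at -0.15 ± 0.12 and LYZ at -0.05 ± 0.17. Nucleotides alone against DMSO at 24 h also gave 0 members by limma (background 0% higher and 0.00830% lower), no member and 38 genes with an unadjusted p under 0.05, and a range from -0.11 for NPC2 to 0.13 for SGSH.

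At 48 h the comparison of A771726 with DMSO rested on libraries of unequal kind. LYZ had 36.3, 956 and 39.9 FPKM in A771726 and 7.70, 6.47 and 5.71 FPKM in DMSO. All 3 A771726 libraries were above DMSO, and library 2 was far above the other 2. CD68 had 5.59, 30.5 and 13.6 FPKM in A771726 and 3.54, 3.17 and 3.53 FPKM in DMSO, again with no overlap. LYZ was higher by 3.90 ± 0.99 (limma adjusted p = 0.0202), and CD68 by 1.71 ± 0.46 (limma adjusted p = 0.0231). ATP6V1A had 57.1, 75.6 and 54.4 FPKM in A771726 and 33.8, 37.0 and 34.5 FPKM in DMSO. It was the third gene called higher, at 0.80 ± 0.22 (limma adjusted p = 0.0264), with its 3 libraries close together.

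In that fit 3 of 37 members were called higher, where 0.830% of all genes were, and 11 lower, where 32.0% of all genes were. The lower ones were ATP6V0D1, CLN3, CTSD, GUSB, LAMP1, MCOLN1, NAGLU, NPC2, SGSH, SMPD1 and TFE3. LAMP1, for one, had 7.53, 5.01 and 45.0 FPKM in A771726 and 68.0, 55.2 and 63.1 FPKM in DMSO, so that libraries 1 and 2 lay far below library 3. The median of the members was -0.96 and that of all genes -0.87. Per library, the members' medians against DMSO were -1.10, -1.65 and 0.09, and those of all genes -1.03, -1.47 and -0.24. ARSA, IDS, CTSB and LAMP2 reached 89.5, 189, 162 and 161 FPKM in library 2, against 0.432 and 1.02, 1.80 and 7.49, 5.74 and 14.3, and 14.0 and 27.7 FPKM in libraries 1 and 3.

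Without library 2, 3 members stayed called higher, the same CD68, LYZ and ATP6V1A, and 10 lower, with 4.99% and 43.5% of all genes. With libraries 1 and 2 left out, library 3 stands alone for A771726 and is assumed to vary like the other groups. In that fit CD68 (1.72 ± 0.15, limma adjusted p = 0.000258), LYZ (2.43 ± 0.15, limma adjusted p = 6.9e-05), LAMP2 (0.84), SQSTM1 (0.74) and ATP6V1A (0.62) were higher, where 7.27% of all genes were. LAMP1 (-0.45) and NAGLU (-0.71) were lower, where 22.0% of all genes were. The medians in library 3 were thus 0.09 for the members and -0.24 for all genes. NAGLU and LAMP1 were called lower in the fit with all libraries, in that without library 2 and in that without libraries 1 and 2. Without library 1 alone, and with median-of-ratios or TPM scaling of all libraries, 0 members were called lower by limma. Of all 12042 genes, 1734, 302 and 21 were called lower in these fits, in that order. Leaving out 1 library of DMSO at 48 h instead ended nearly all calls: 0 members were called without library 1 or library 3 of DMSO, and NAGLU alone without library 2. Calls among all 12042 genes fell as well, from 100 higher and 3856 lower with all libraries. They were 2 and 24 without library 1, 32 and 1665 without library 2, and 2 and 23 without library 3 of DMSO.

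A771726 with nucleotides against A771726 at 48 h rested on the same A771726 libraries. CD68, LYZ and ATP6V1A were lower, at -1.98, -3.88 and -0.73, and 8 members were higher (limma), with 0.756% of all genes called lower and 31.9% higher. CD68 had 2.87, 2.25 and 2.94 FPKM with nucleotides, against 5.59, 30.5 and 13.6 FPKM without, and LYZ 6.78, 6.95 and 6.45 FPKM with, against 36.3, 956 and 39.9 FPKM without. Both stayed below the lowest A771726 library. Leaving out any library of A771726 with nucleotides at 48 h ended all calls among the members. It ended most calls among all 12042 genes too, from 3836 higher and 91 lower with all libraries. Without library 1, 2 or 3, 15, 16 and 14 genes were called higher, and 4 lower each time. Against DMSO at 48 h, 0 members were called by limma for A771726 with nucleotides, where 0% of all genes were higher and 0.0249% lower. For nucleotides alone it was 0 again, where 0% were higher and 0.00830% lower. No member had an unadjusted p under 0.05 in either, while 22 and 14 of all genes did.

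Time alone moved few of these genes. In DMSO, CD68 averaged 3.41 ± 0.209 FPKM at 48 h and 1.97 ± 0.254 FPKM at 24 h, and was higher by 0.57 ± 0.12 on the log2 scale (limma adjusted p = 0.0181). GLA, the alpha-galactosidase, averaged 12.7 ± 1.23 FPKM at 48 h and 18.3 ± 0.769 FPKM at 24 h and fell by 0.50 (limma adjusted p = 0.0209). SQSTM1 averaged 80.0 ± 9.96 FPKM at 48 h and 119 ± 15.4 FPKM at 24 h and fell by 0.57 (limma adjusted p = 0.0343). Of all genes, 1.56% were called higher and 1.46% lower. Deviations of DMSO libraries with the same number were only weakly alike at the 2 times (correlations of 0.13, 0.30 and 0.13). In A771726 with nucleotides the same correlations were -0.09, -0.03 and 0.11. With that number as a block over all 18 libraries of the fit, 7 members passed in DMSO (limma). CD68, CTSZ, MAN2B1 and PSAP were higher, and ATP6V0D1, GLA and SQSTM1 lower. With that block 5.66% of all genes were called higher and 6.18% lower. Each of the 3 calls was lost when 1 of several DMSO libraries was left out, and none remained without library 3 of either time. In A771726 with nucleotides CD68 averaged 2.69 ± 0.379 FPKM at 48 h and 1.70 ± 0.406 FPKM at 24 h, higher by 0.46 (limma adjusted p = 0.0486), where 2.51% of all genes were called higher and 0.689% lower. CD68 kept this call under only 6 of 17 alternatives. Under TPM scaling, and without library 3 of A771726 with nucleotides at 24 h, NPC2 alone was called instead.

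Several members varied within groups in a shared way. In library 1 of A771726 at 24 h, library 2 of A771726 with nucleotides at 24 h and library 3 of nucleotides at 48 h, the same 9 of 37 members were the highest of their group: CTSB, GUSB, NPC1, MCOLN1, TPP1, ARSA, SGSH, ATP6AP1 and TFE3. The same was true of 25.7% of all genes, a like share. TPP1 had 8.31 FPKM in that A771726 library and 2.03 and 3.0 FPKM in the other 2. It had 5.16 FPKM in that library of A771726 with nucleotides, against 1.71 and 1.41 FPKM, and 8.47 FPKM in that library of nucleotides, against 1.76 and 1.95 FPKM. ATP6AP1 followed the same course, with 17.2 FPKM against 6.51 and 10.1 FPKM in A771726 at 24 h. With these 3 libraries left out, a choice made after the values were seen, 10 members were called for A771726 against DMSO at 24 h, the 8 named above with CTSF and NPC1. Calls among all genes were then more frequent too, at 12.9% higher and 9.31% lower. The source of this variation was not tested.

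**Figure D4:**
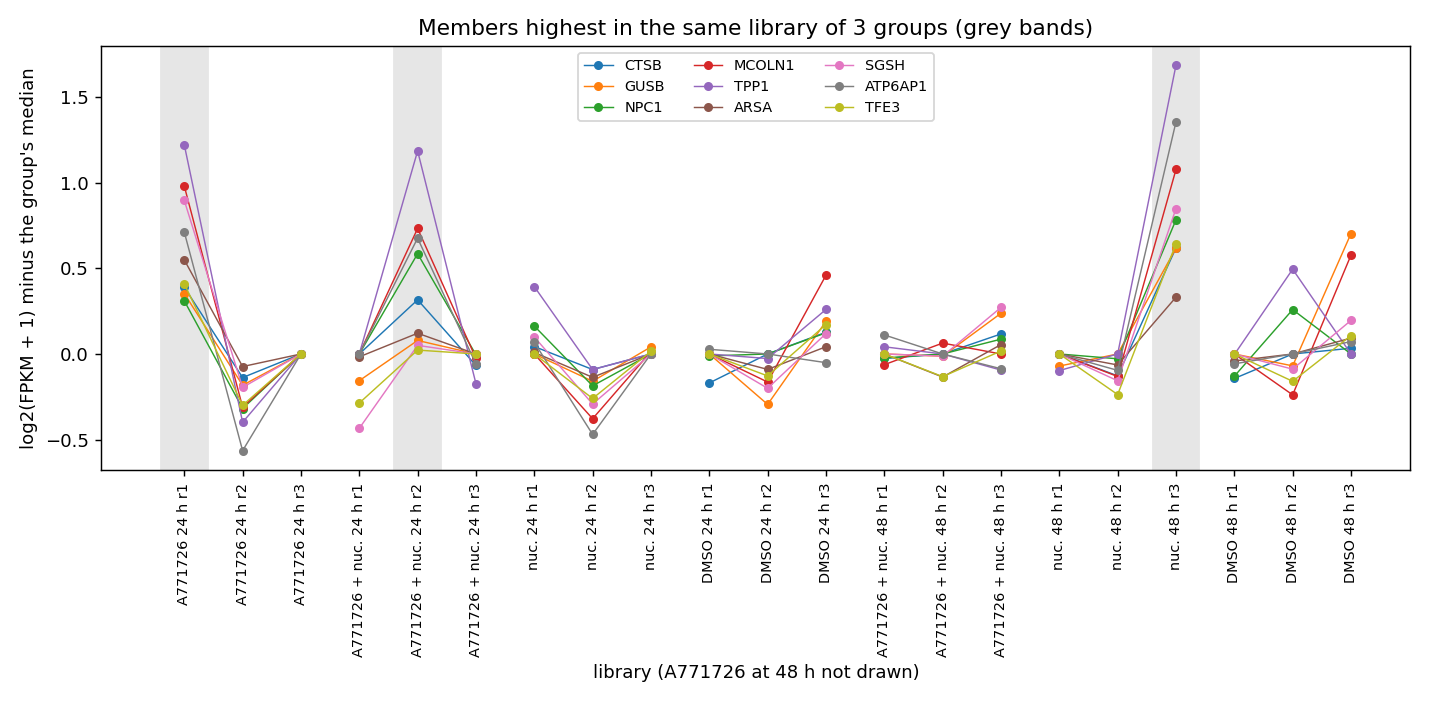
Log2(FPKM + 1) minus the median of its group for the 9 members that were highest in the same library of 3 groups (grey bands); libraries run across, lines join the 3 libraries of a group, and nuc. stands for nucleotides. TPP1, MCOLN1 and ATP6AP1 show the largest excursions in the grey bands, while A771726 at 48 h is not drawn.

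CD68 and LYZ are markers of macrophages, so markers of other cells were read in the same libraries. Of 22 macrophage and leukocyte markers, only CD74, HLA-DRA and HLA-DRB1, genes of antigen presentation that melanoma cells can express, exceeded 1 FPKM on average at 24 h. CD74 rose to 473 ± 38.2 FPKM in A771726, against 335 ± 40.5 FPKM in DMSO (log2 difference 0.50, limma adjusted p = 0.0287). The other 19 reached at most 0.838 FPKM in any library at 24 h, and their sum ran from 0.573 to 0.930 FPKM in A771726 and from 1.02 to 1.29 FPKM in DMSO. These markers did not all go the same way. The highest value was 0.254 FPKM in A771726 and 0.838 FPKM in DMSO for MSR1, and 0.225 and 0.330 FPKM for FCER1G. For ITGAX it was 0.246 and 0.0446 FPKM, for CD14 0.147 and 0.097 FPKM, and for CSF1R 0.115 and 0.0693 FPKM. TYROBP and MARCO were listed at 0 in all 24 libraries, and PTPRC, the pan-leukocyte marker CD45, reached at most 0.0102 FPKM in A771726 at 24 h. The summed level of 12 fibroblast and endothelial markers was 7.62 to 8.19 FPKM in A771726 and 3.05 to 3.18 FPKM in DMSO at 24 h. Only 2 of the 12 could be tested, LUM and PDGFRB. Both were called higher, where 10.0% of all genes were. The part of such cells in the results was not tested.

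The other genes of the pathway were read from 6 lists of 196 genes in all, drawn up with earlier results known, of which 175 were tested. For A771726 against DMSO at 24 h, 24 were higher and 0 lower (limma), with a median log2 difference of 0.17. That is 13.7% higher, against 10.0% of all genes, and 0% lower, against 7.79%. In A771726 with nucleotides against A771726, 21 of the 175 were lower, where 9.03% of all genes were, and 2 higher, 1.14% against 4.30% of all genes. CTSS, ATP6V0A4 and TP53INP1 met the limit on low values only through A771726. Without them 21 of 172 were higher in the first comparison, 12.2%, and 18 lower in the second, 10.5%. Shares higher in the first comparison and lower in the second were near those of all genes and are no result about these lists. The shares of the 175 in the other direction, 0% and 1.14%, were below the 7.79% and 4.30% of all genes. That difference was not tested. Of 36 further hydrolases and their cofactors, 6 were called higher, 16.7% against 10.0% of all genes, CTSS among them. CTSK, a cathepsin known from bone resorption, had 7.04, 11.3 and 9.86 FPKM in A771726 and 3.34, 3.45 and 2.82 FPKM in DMSO (log2 difference 1.29). FUCA1, the lysosomal fucosidase, had 10.0, 13.6 and 12.7 FPKM in A771726 and 5.37, 5.04 and 5.32 FPKM in DMSO (1.06). GM2A, the activator that presents a ganglioside to HEXA, and RNASET2, an acid ribonuclease, both stood at 0.69. The abundant CTSC and CTSL did not pass, at -0.09 and 0.29.

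Of 31 further membrane proteins, 3 were called higher, 9.68% and so like the 10.0% of all genes: ABCB9, a peptide transporter, at 1.25, SIDT2, which carries nucleic acids, at 0.74, and TMEM175, an ion channel, at 0.70. CD63, the tetraspanin, was not among them, at -0.35. Of 15 further proton pump subunits, 1 was called higher, 6.67% against 10.0% of all genes. ATP6V0A4, a subunit isoform known from kidney, had 4.36, 5.07 and 4.86 FPKM in A771726 and 0.746, 0.604 and 0.481 FPKM in DMSO. The groups were far apart, at a log2 difference of 1.84 ± 0.09. It averaged 0.494 FPKM over the 18 libraries without A771726 alone and so entered the test only through the group in which it was high. The abundant ATP6V0B stood at -0.33. None of 27 genes of sorting to the lysosome passed, where 10.0% of all genes were called higher and 7.79% lower. M6PR, a mannose 6-phosphate receptor, was at -0.38 and AP1S1 at 0.00.

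Of 27 genes of the MITF and TFE family and of mTORC1 signalling, 5 were called higher, 18.5% against 10.0% of all genes. SESN1, a sestrin that restrains mTORC1, averaged 18.4 ± 4.06 FPKM in A771726 (SD, n = 3; lowest 14.5, highest 22.6) and 3.66 ± 0.576 FPKM in DMSO (SD, n = 3; lowest 3.24, highest 4.32; log2 difference 2.04, limma adjusted p = 1.73e-05). SESN2 followed at 1.04 and SESN3 at 0.64. MITF had 10.1, 13.7 and 10.5 FPKM in A771726 and 5.71, 6.57 and 5.25 FPKM in DMSO, and was the 1 tested gene of the TFEB, TFE3 and MITF trio that passed (0.85, limma adjusted p = 0.00193). Of 39 further autophagy genes, 9 were called higher, 23.1% against 10.0% of all genes. TP53INP1 stood at 2.04, but its mean without A771726 alone was 0.779 FPKM, so that it too was tested only through the group in which it was high. DRAM1, a lysosomal membrane protein that promotes autophagy, stood at 1.81, WIPI1, which binds the lipids of forming autophagosomes, at 1.04, and OPTN, a cargo receptor, at 0.85. GABARAPL2, a relative of GABARAPL1, did not pass, at 0.27.

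According to the GENCODE v29 annotation, 20 of the 38 genes share exon sequence with another gene, 16 with one on the opposite strand and 11 with one on the same strand. CD68 and LYZ each overlap an antisense gene, and CD68 also a transcript on its own strand. Whether fragments were assigned by strand is not given in the sources used here, so reads from such pairs cannot be told apart. GUSB, IDS, SQSTM1 and GABARAPL1 have annotated genes named after them as pseudogenes or relatives (GUSBP1, IDSP1, SQSTM1P1 and GABARAPL3 among them). How alike the sequences are was not measured, and the values of these 4 genes are uncertain if fragments were shared.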

How the data were processed

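RNA-seq of 24 A375 libraries was used. The values deposited by the authors are FPKM per gene; per the submitters' processing notes, reads were handled with cutadapt, whose version the notes leave out, TopHat2 2.0.11, hg19 and Cufflinks 2.2.1. No counts were at hand, so the depth per library is unknown. Low values showed no step common to all genes from which whole reads could be recovered, and no intervals from counting error are given. The table gives gene symbols without coordinates.

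Values were tested as log2(FPKM + 1) with limma 3.58.1 in R 4.3.3, which understates changes of low genes, for genes averaging 1 FPKM or more across all 24 libraries. One fit was made per time (12 libraries, 4 groups), and 1 over 18 libraries in 6 groups for the comparison of times, with Benjamini-Hochberg adjustment over 12042 genes and a threshold of 0.05. Scripts were tested on simulated data. The members, the lists and the tests were chosen with earlier results of these data known. All 38 genes were accounted for; per-library values are given for CD68, LYZ, the regulators, each gene called at 24 h and the most abundant gene of each role, and up to 4 genes that passed and 2 that did not for each further list. Some genes outside this rule (NPC2, TPP1, CTSB at other contrasts, IDS, ATP6AP1, LAMP2) were named after their values were seen. Replicate numbers come from the labels, which do not say what they mark; correlations of deviations between same-numbered libraries ran from -0.28 to 0.30, and all 3 pairs exceeded 0.1 in 1 of 10 comparisons, DMSO at 48 h against 24 h (0.13, 0.30 and 0.13). Alternatives were the pseudocount, the filter, scaling, the fit, the block and leaving out libraries. Means of FPKM are given ± SD, and log2 differences ± SE.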

Additional observations from a re-analysis of the deposited data

Results flagged for a closer look

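For CD68 the effect of A771726 at 24 h differed with and without nucleotides by -1.86 on the log2 scale in an interaction test (limma adjusted p = 0.000248). The 3 libraries of A771726 alone stood at 9.08, 9.06 and 9.86 FPKM, and those of A771726 with nucleotides at 1.27, 2.07 and 1.75 FPKM. For LYZ the same difference was -1.65 (limma adjusted p = 0.00433), with 14.8, 28.1 and 21.0 FPKM in A771726 alone and 5.77, 5.55 and 5.60 FPKM with nucleotides. A single fit over all 24 libraries ended both of these calls.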

How the results depend on the processing

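The count of members called is given per alternative where it moved by more than 1.5 times. For A771726 against DMSO at 24 h (8 members) it was 28 under TPM scaling, 1 in a single fit over all 24 libraries and 14 with the replicate block (13 higher, 1 lower), and 5 to 11 when 1 library was left out (5 without library 2 of DMSO, 11 without library 2 of A771726). The sign of GABARAPL1, -0.04 there, turned to 0.44 under TPM scaling and 0.19 without the 3 co-varying libraries, and leaving out 1 library gave -0.18 to 0.19. Calls among all genes in this comparison, 1210 higher and 938 lower, moved as well. They were 5126 and 211 under TPM scaling, 59 and 55 in the fit over 24 libraries, and 1874 and 1686 with the block. Without library 2 of DMSO they were 793 and 571, and without library 2 of A771726 1326 and 1207. For A771726 with nucleotides against A771726 at 24 h (7) the count of members was 13 under TPM scaling and 10 with the replicate block. It was 1 in the fit over 24 libraries, 2 in the fit over 23, and 3 to 8 with 1 library left out. All genes gave 518 higher and 1087 lower, 225 and 2416 under TPM scaling, and 974 and 1750 with the block. The fit over 24 libraries gave 29 and 43, and that over 23 gave 290 and 709. For the interaction (2) the count of members was 7 under TPM scaling, 0 in the fit over 24 libraries and 5 with the replicate block. It was 2 to 4 with 1 library left out. All genes gave 165 higher and 399 lower, and 80 and 1129 under TPM scaling. The fit over 24 libraries gave 1 and 8, and the block 396 and 809. At 48 h, A771726 against DMSO (14) gave 7 with a pseudocount of 0.1, 8 with no filter, 3 with median-of-ratios scaling, 1 with TPM scaling, 4 with quantile normalization, 23 in the fit over 24 libraries and 7 without libraries 1 and 2 of A771726, and 0 to 28 with 1 library left out. A771726 with nucleotides against A771726 at 48 h (11) gave 5, 6, 3, 2, 4 and 24 under the first 6 of these in that order, 17 in the fit over 23 libraries, and 0 to 29 with 1 library left out. Among all genes A771726 against DMSO at 48 h gave 100 higher and 3856 lower. It gave 511 and 6404 in the fit over 24 libraries, 132 and 302 with median-of-ratios scaling, and 24 and 21 with TPM scaling. Without library 3 of DMSO it gave 2 and 23, and without library 3 of A771726 390 and 6871. A771726 with nucleotides against A771726 gave 3836 and 91 of all genes. That became 6381 and 522 in the fit over 24 libraries, and 38 and 23 with TPM scaling. For 48 h against 24 h in DMSO (3) both fits over all times called 0 members and the replicate block 7, and leaving out 1 library 0 or 1. In A771726 with nucleotides (1) it was 0 with no filter, with a mean of at least 5 FPKM, with median-of-ratios scaling, with limma-trend and in both fits over all times, 2 with quantile normalization and 7 with the replicate block, whose numbers do not pair the libraries there, and 0 or 1 with 1 library left out. Among all genes time in DMSO gave 188 higher and 176 lower, and 681 and 744 with the block. The fit over 24 libraries gave 0 and 0, and that over 23 gave 3 and 0. Time in A771726 with nucleotides gave 302 and 83, 1203 and 320 with the block, and 0 and 3 in the fit over 24 libraries. The 4 comparisons of nucleotides or of A771726 with nucleotides against DMSO gave 0 under every alternative run. The causes were not tested.

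TPM scaling moved the share of called genes that were higher to 96.0% from 56.3% for A771726 against DMSO at 24 h, to 8.52% from 32.3% for A771726 with nucleotides against A771726, and to 6.62% from 29.3% for the interaction. For A771726 against DMSO at 48 h the share was 2.53%, and 30.4% with median-of-ratios scaling, 53.3% with TPM scaling and 32.9% with quantile normalization. The 3 libraries per group, an unknown depth and 1 cell line limit all of these values, and at 48 h the differing A771726 libraries limit them further. Low genes such as ARSA and TFEB have understated changes on the scale used.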

Other observations

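Among 19 melanoma markers, 13 could be tested, and MITF and S100A1 were higher and NES lower in A771726 than in DMSO at 24 h by limma. That is 15.4% higher and 7.69% lower, near the 10.0% and 7.79% of all genes. MLANA, not called, is counted among the 13 but met the limit on low values only through A771726 alone. It averaged 10.1 FPKM over 24 libraries and 0.2 FPKM over the 18 without A771726 alone. S100A1, a calcium-binding protein, had 37.5, 20.2 and 22.8 FPKM in A771726 and 12.7, 11.5 and 12.9 FPKM in DMSO (log2 difference 1.01, limma adjusted p = 0.00655). NES, which encodes the filament protein nestin, had 14.6, 9.83 and 11.5 FPKM in A771726 and 24.9, 19.8 and 25.7 FPKM in DMSO (-0.92, limma adjusted p = 0.00719). With nucleotides added to A771726 NES had 23.3, 18.6 and 28.5 FPKM, above each of those A771726 libraries (log2 difference 0.91, limma adjusted p = 0.00897). LUM, a matrix proteoglycan gene of fibroblasts, had 2.02, 3.04 and 2.34 FPKM in A771726 and 0.844, 1.05 and 0.832 FPKM in DMSO (0.85, limma adjusted p = 0.00119).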
